A study of Mus musculus with 3 samples.

Results

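Wfdc18 was 1 of 32287 features in a single-cell expression matrix of mouse esophageal tumour cells, and it was the mouse gene whose counts spread most over the cells. It was selected on that spread, chosen by the variance of its counts over their mean in these same cells. That ratio, the level of Wfdc18 and their order among genes are therefore given as a description with no test. Values were read in the 14925 of 18116 cell barcodes that had at least 500 genes, at least 1000 unique molecular identifiers (UMIs, 1 for each captured RNA molecule) and at most 20% mitochondrial UMIs.

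The cells are called PC. They came from esophageal organoids of mice with Trp53 floxed on both alleles, in which Trp53 was deleted by an adenovirus carrying Cre and EGFP and Cdkn2a was then disrupted with CRISPR/Cas9. All of the cells share these changes, constitutive Cas9 and a transfected barcode library, and no unedited control or second genotype was analysed here. The organoid cells were dissociated and cultured in medium with serum, first with the kinase inhibitor Y-27632 and later without it. After the barcode library they were expanded for 3 passages, and live RFP-positive cells were sorted, so every value describes that sorted fraction of 1 culture. The labels give about 20000 recovered cells, a count made before the filters used here.

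The matrix held 47720034 UMIs, 45443280 of them in kept cells, and the median kept cell had 2955 UMIs and 1499 genes (range 1000 to 23453 UMIs). There was 1 culture with no replicate, so no difference was set against a spread between cultures. Intervals are exact 95% Poisson or Clopper-Pearson intervals and cover counting error only. Levels are given as CPM, UMIs of a gene per 1000000 UMIs. Of the markers of esophageal epithelium, the basal genes Krt14 (1145 CPM), Krt5 (628 CPM) and Trp63 (141 CPM) were measured in kept cells. Krt4 (0.726 CPM) and Krt13 (6.38 CPM) of the differentiated layers were near 0. Krt6a (370 CPM) and Sprr1a (239 CPM), also on the list of 12 differentiated squamous markers, stood above Trp63. Of that list 8 genes had at least 20 UMIs.

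Wfdc18 encodes a small secreted protein of the whey acidic protein (WAP) family, earlier named Expi for extracellular proteinase inhibitor. Proteins of this family share the four-disulfide core, a short domain held together by pairs of cysteines. Several members, such as secretory leukocyte protease inhibitor (Slpi), block serine proteinases or act against microbes at epithelial surfaces. In the mouse mammary gland Wfdc18 is known as a gene of pregnancy and of involution, the regression of the gland after lactation.

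The gene (ENSMUSG00000000983) lies on chromosome 11 of GRCm38, from 83709015 to 83711348 on the plus strand in GENCODE M21. Its protein-coding transcript has 521 bases in 3 exons, at 83709015 to 83709199, 83709857 to 83709999 and 83711156 to 83711348. The reading frame lies in exons 1 and 2, so exon 3, at the transcript's 3' end, is 3' UTR, and its 193 bases are the end nearest to where a 3' library primes. The reading frame of 225 bases is shown here because its cysteine codons mark the family's domain. It runs from 83709118 to 83709999 with the intron removed, in lower case with the 8 in-frame cysteine codons in capitals.
Wfdc18 coding sequence: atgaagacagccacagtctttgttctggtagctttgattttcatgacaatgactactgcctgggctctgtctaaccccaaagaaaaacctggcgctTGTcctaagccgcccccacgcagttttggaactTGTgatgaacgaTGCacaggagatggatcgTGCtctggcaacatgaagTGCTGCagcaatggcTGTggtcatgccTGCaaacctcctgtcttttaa
The frame opens with atg and holds 74 codons before the stop.

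Reads could in principle be shared with a close copy. The nearest relative was Wfdc17, the next WAP gene on the same strand, with 79.7% identity over the coding sequence. Of the 497 stretches of 25 bases in the Wfdc18 transcript, 6 also occurred in Wfdc17, and none occurred in any other WAP gene compared. Wfdc17 had 2 UMIs in all kept cells and Wfdc21, the WAP gene on the other side, had 4, against 277096 for Wfdc18.

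Wfdc18 was among the most abundant transcripts of the culture. Its 277096 UMIs came to 6098 CPM (6075 to 6120), or 0.61% of all UMIs, rank 8 among all features and rank 6 without the added sequences GFP and Scar. The median cell held 2 Wfdc18 UMIs, while the highest held 371. A high total thus went with a low typical count.

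To compare cells at one depth, each cell was thinned at random to 1500 UMIs, which left out 1644 shallower cells and kept 13281. The thinned count of Wfdc18 had a mean of 9.65 and an SD of 16.5 over cells. The median was 1, the 75th percentile 13, the 90th 32 and the 99th 74, and the highest cell held 141, which is 9.4% of its thinned UMIs. The SD exceeded the mean, and most of the transcript sat in a minority of cells.

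No Wfdc18 UMI was left in 5573 thinned cells, or 41.96% (41.1% to 42.8%), whereas a Poisson count of the same mean would leave 0.00641%. Without thinning, 63.2% of kept cells had a UMI (62.4% to 63.98%). At the other end, 1361 cells (10.2%) held 32 or more thinned UMIs, and 28 cells held 100 or more. The 10% of cells with the most Wfdc18 held 52.3% of its thinned UMIs, the top 20% held 76.9% and the top 1% held 9.32%.

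The counts between these ends left no gap. Cells with 1 UMI made up 8.85% of the total, cells with 2 to 3 made up 7.94%, and the ranges 4 to 7, 8 to 15 and 16 to 31 held 8.95%, 10.5% and 11.5%. Cells with 32 to 63 made up 8.38% and cells with 64 or more 1.87%. On this doubling scale the shares dipped at 2 to 3 UMIs and were highest, among cells with a UMI, at 16 to 31. The ranges of Wfdc18 used from here on are ranges of 1 gene's count and not cell types.

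**Figure D1:**
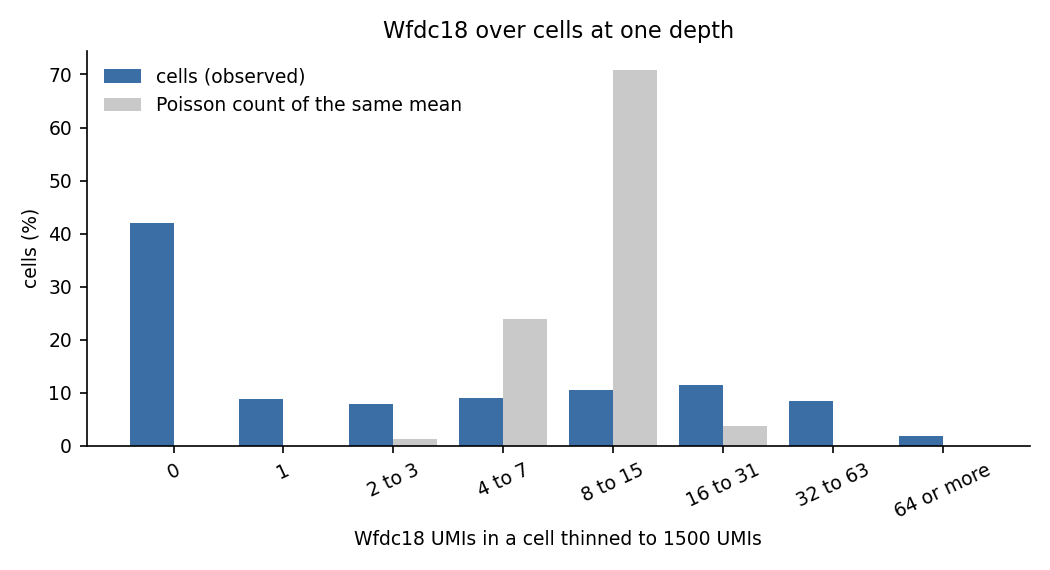
Share of thinned cells (y axis, %) in each range of Wfdc18 UMIs per cell (x axis, UMIs among 1500), observed in blue and for a Poisson count of the same mean in grey. The observed cells pile up at 0 (41.96%) and stretch to 64 or more UMIs (1.87%), while 70.9% of the Poisson counts fall between 8 and 15.

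Over the 2602 features, GFP and Scar included, that averaged 0.1 or more UMIs per thinned cell, the median variance-to-mean ratio was 1.05. That of Wfdc18 was 28.1 over all thinned cells. Malat1, a nuclear noncoding RNA, followed with 21.001, then Tmsb4x (thymosin beta 4, which binds actin monomers) with 16.6, Spp1 (osteopontin) with 15.9, Ppbp (a platelet-type CXC chemokine) with 11.8 and Acta2 (smooth muscle actin) with 11.3. The added sequences Scar (51.0) and GFP (39.3) lay above Wfdc18 and were ranked apart from mouse genes. Among the 11 genes with a mean within 1.5-fold of that of Wfdc18 the highest ratio was 4.402, for Actb.

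The label of most variable epithelial gene comes from this ratio in these cells. In the 11353 of them in clusters with more epithelial than mesenchymal marker RNA the ratio was 26.8, against 21.4 for Malat1. The label goes with the measure, since one scaled by the squared mean gives low genes more weight. By the excess of the variance over a Poisson count, divided by the squared mean, Wfdc18 had 2.81 and ranked 58. Tagln, a smooth muscle actin-binding protein, was first with 35.2. Of the genes with a mean of at least 1, the 5 with a higher excess were Spp1 (11.4), Acta2 (7.22), Gsto1 (6.41), Ly6d (5.24) and Fn1 (3.30). At a thinned depth of 1000 UMIs Malat1 was first by the variance-to-mean ratio (29.6) and Wfdc18 second (19.1).

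The values near the thresholds on barcodes showed that Wfdc18 varied with depth. The 362 cells just inside the minimum depth, with a median of 1050 UMIs, stood at 3034 CPM (2861 to 3214), and the 362 barcodes just outside, with a median of 948.5 UMIs, at 2125 CPM (1974 to 2285). All 3191 barcodes left out together stood at 1102 CPM. Just inside the mitochondrial limit, 18 cells with 18% to 20% stood at 266.4 CPM (97.8 to 580), and just outside, 7 barcodes stood at 234 CPM (28.3 to 844). Within kept cells the level was highest at middle depth. From the shallowest to the deepest 20% of cells it was 4870, 7360, 7599, 6639 and 4571 CPM, and the share of thinned cells with a UMI in the upper 4 of these groups was 60.5%, 60.7%, 58.0% and 52.2%.

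Cells were grouped into 8 Leiden clusters, numbered by size, from variable genes other than Wfdc18, GFP and Scar. Cluster 3 was cycling-like, with Ccna2 and Ube2c as its leading genes and 6 of the 8 cycling markers among its 10 leading genes. Cluster 4 was mesenchymal-like, with Grem1 and Ccn5 leading and Vim and Col1a1 among the 10. The others are called by number: Prl2c3 and Prl2c2 (proliferins) led cluster 1, Krt7 and Sorbs2 cluster 2, Ltf and Lcn2 cluster 5, Zfpm2 and Aff2 cluster 6, and Ly6c1 and Pate14 cluster 7. Wfdc18 itself and Ccl9 were also among the 10 leading genes of cluster 1. Clusters 1, 2, 3, 5, 6 and 7 had more epithelial than mesenchymal marker RNA and are called epithelial, 12962 kept cells in all. Cluster 6 passed this rule with little of either, its epithelial markers summing to 928 CPM and its mesenchymal markers to 626 CPM. In cluster 1 these sums were 4501 and 503 CPM.

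Wfdc18 was highest in cluster 1, at 9504 CPM (9456 to 9551), followed by cluster 2 at 7180 CPM and cycling-like cluster 3 at 6116 CPM. They held 55.8%, 24.0% and 16.8% of all Wfdc18 UMIs. Cluster 5, rich in the antimicrobial proteins lactoferrin and lipocalin-2, stood far lower at 1448 CPM (1412 to 1486). Mesenchymal-like cluster 4 stood at 464 CPM (448 to 480), cluster 6 at 352 CPM (314 to 395) and cluster 7 at 271 CPM (231 to 316). At this resolution, among these 7 clusters, the counting intervals of neighbours in this order lay apart except for clusters 6 and 7. Cluster 8 had 17 cells and 2 Wfdc18 UMIs.

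At one depth 76.8% of cluster 1 cells had a Wfdc18 UMI, 66.1% of cluster 2, 65.2% of cluster 3 and 38.4% of cluster 5. The share was 10.3% (8.99% to 11.8%) in cluster 4, 18.5% (12.1% to 26.5%) in cluster 6 and 11.8% (7.12% to 17.95%) in cluster 7. Median depths were 3340, 2069, 3613 and 3020 UMIs in clusters 1, 2, 3 and 5, and 3353.5 in cluster 4. Cluster 6 was shallow, with a median of 1185 UMIs and 10.4% mitochondrial UMIs, and 124 of its 656 cells reached the thinned depth. Free RNA in droplets gives UMIs to cells that do not make a transcript, and its part in the low shares of clusters 4, 6 and 7 was not tested.

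The few mesenchymal-like cells with much Wfdc18 also carried epithelial RNA. In cluster 4, 36 thinned cells with 10 or more Wfdc18 UMIs, 1.88% of the cluster, held 62.4% of its Wfdc18 UMIs. They had a median of 4 UMIs of the epithelial marker list, against 0 in cluster 4 cells without Wfdc18 and 7 in the epithelial clusters. Their median depth was 4582.5 UMIs against 3335, and their median doublet score 0.384 against 0.0282. Whether these barcodes held more than 1 cell was not tested. With finer clusters (resolution 1.0) the cluster matching cluster 4 kept 1699 cells, stood at 68.2 CPM (61.5 to 75.3) and had a UMI in 5.44% of its thinned cells. Clusters 6 and 7 lay above this finer cluster in both measures, so the order of cluster 4 against them depended on the clustering. The ratio of cluster 1 to cluster 4 was 20.5 in the coarser and 172 in the finer clusters.

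Cells also differed widely within a cluster. In cluster 1 the thinned count ran from 0 at the 5th percentile through a median of 7 to 55.4 at the 95th, with a highest count of 136. The medians of clusters 2 and 3 were both 3, with 95th percentiles of 47 and 41. The variance-to-mean ratio within these clusters was 25.03, 27.8 and 22.01, close to that over all cells. Differences between clusters made up 10.99% of the variance of the thinned count over cells, and 21.4% on the log1p scale. For comparison, on the unlogged count, the 194 features with a mean of at least 1, GFP and Scar included, had a median of 6.62%. Of them 58 had a higher share than Wfdc18, led by Fn1 with 55.8%.

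**Figure D2:**
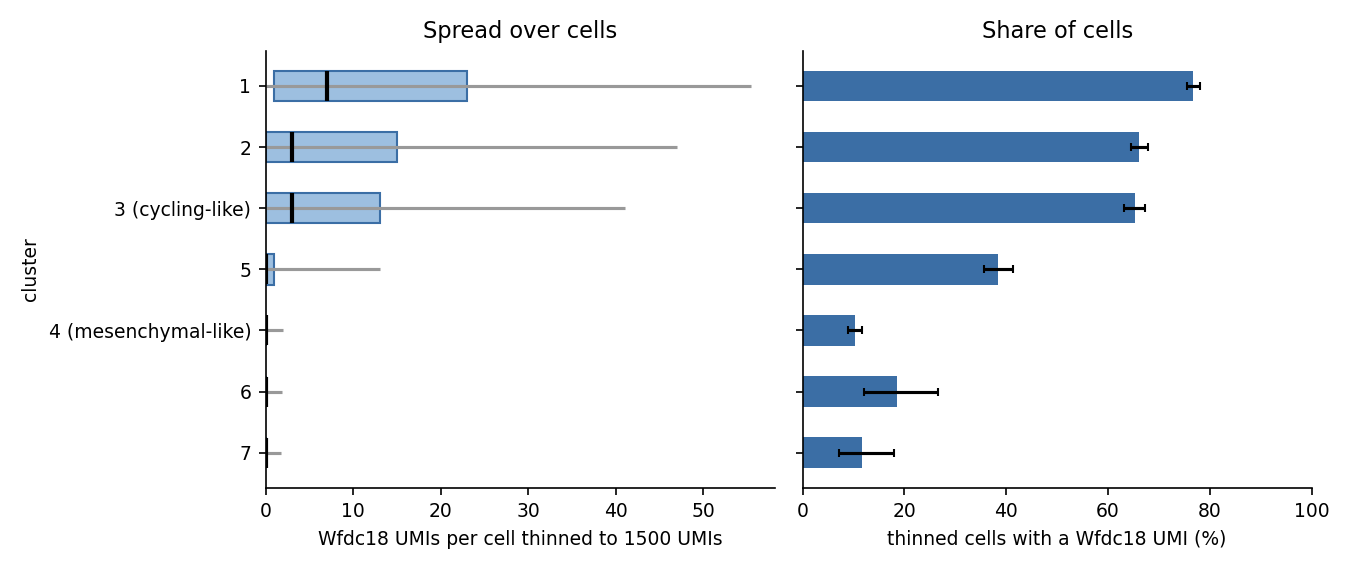
Left, Wfdc18 UMIs per cell thinned to 1500 UMIs (x axis) in each cluster of at least 50 cells (y axis), with the 5th to 95th percentile as a grey line, the quartiles as a box and the median as a black tick. Right, the share of thinned cells with a Wfdc18 UMI (x axis, %) with its exact 95% interval, which falls from 76.8% in cluster 1 to 10.3% in mesenchymal-like cluster 4.

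Genes that went with Wfdc18 from cell to cell were sought among the 2601 other features at an average of 0.1 or more UMIs. They include GFP and Scar and are called genes from here on. Spearman's rho was taken over the 13281 thinned cells. All points share 1 culture, 1 library and 1 depth, so rho is a description with no p. Over all cells 22 genes (0.846%) had a rho of at least 0.2 and 19 genes (0.73%) a rho of at most -0.2, around a median of -0.00213. The highest rho was 0.385 and the lowest -0.351, so no single gene tracked Wfdc18 closely.

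Of the 22 genes that went with Wfdc18, 5 were on the list of basal epithelial genes and 6 encoded ribosomal proteins. Fxyd3, a regulator of the sodium-potassium pump, had the highest rho (0.385), followed by Gpx2, an epithelial glutathione peroxidase (0.315), and Ccl9, a CC chemokine (0.286). Krt14 (0.281), Krt5 (0.259) and Krt17 (0.246) are keratins of basal or activated squamous cells. Cbr2, a carbonyl reductase (0.279), Ifitm3, an antiviral membrane protein (0.271), Ly6a, the surface antigen Sca-1 (0.260), and the ribosomal protein Rpl13 (0.269) were also among the 12 highest.

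Each of these named genes stood higher in cells with 32 or more Wfdc18 UMIs than in cells with none. Levels in this comparison leave Wfdc18 out of the total. In cells with no Wfdc18 UMI, then 1 to 3, 4 to 16, 17 to 31 and 32 or more, Fxyd3 stood at 904, 1553, 1780, 1920 and 2187 CPM. Ccl9 stood at 80.03, 162, 268, 326 and 430 CPM over the same ranges. Both genes were higher in each range than in the one before it, with the widest relative spread for Ccl9. Ifitm3 did not rise at each step, at 2118, 3061, 3319, 3279 and 3270 CPM. Neither did Krt14, Krt17 and Cbr2.

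For a ratio, the 2758 cells in the top 20% by Wfdc18 (17 or more thinned UMIs) were set against the 5573 cells with none, since the lowest 20% all held 0. A gene counted as different at a ratio of at least 2, a level of at least 10 CPM in the higher group and counting intervals that did not overlap. By this rule 27 of 2601 genes (1.04%) were higher and 56 (2.15%) lower. Ccl9 was 4.71-fold higher (4.30 to 5.16), at 377 against 80.03 CPM, the largest ratio among the named correlated genes. Gpx2 was 2.45-fold higher (2.34 to 2.56) and Fxyd3 2.27-fold (2.20 to 2.34). Krt14 (1.73-fold), Cbr2 (1.82-fold) and Krt5 (1.97-fold) stayed under the threshold of 2. Of the 2758 cells, 146 lay exactly at the lower edge of 17 UMIs, and 134 cells lay just below it at 16.

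Of the 19 genes that went against Wfdc18 over all cells, 2 were on the list of mesenchymal markers, Vim and Fn1. Of that list 3 of 12 were tested, the other being Sparc (-0.119), while 0.73% of all tested genes reached -0.2. Spp1, a secreted matrix protein, had the lowest rho (-0.351), then Hmga2, a chromatin protein (-0.302), Vim, the filament protein of mesenchymal cells (-0.302), and Ccbe1, a secreted factor of lymphatic growth (-0.299). Ccl2 (-0.273) and Ccl7 (-0.262), which attract monocytes, Piezo2, a mechanically gated channel (-0.264), and Fstl1, a secreted glycoprotein (-0.256), followed. Over the 5 ranges Spp1 went from 1784 through 428, 174 and 100 to 60.3 CPM. In the top 20% it stood at 80.8 against 1784 CPM, a ratio of 0.0453 (0.0404 to 0.0505).

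The share of mesenchymal-like cells also fell over these ranges, and its part in this side of the list was not tested. Cluster 4 made up 30.9% of the cells with no Wfdc18 UMI, 5.70% of those with 1 to 3 and 0.147% of those with 32 or more. The summed level of the 12 mesenchymal markers was 2746 CPM in cells without Wfdc18 and between 657 and 881 CPM in the other ranges, and that of the 8 basal markers climbed from 1922 to 3577 CPM. Markers of other cells were near 0. Immune markers summed to at most 2.03 CPM in any range, with Adgre1 at 0 and 1 of 8 above 20 UMIs, and endothelial markers to at most 14.2 CPM, with Cdh5, Emcn and Cldn5 at 0.

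The ranges differed little in quality measures. Median depth went from 3205 UMIs in cells without Wfdc18 to 2994 in those with 32 or more, and the median mitochondrial share from 2.79% to 2.52%. Over all thinned cells Wfdc18 had a rho of -0.0651 with total UMIs, -0.105 with genes and -0.0909 with the mitochondrial share. Its rho with the doublet score was higher, at 0.222. Without the 10% of cells with the highest scores, 24 genes had a rho of at least 0.2 and 21 of at most -0.2. Among ribosomal protein genes 75 of the 79 tested had a rho above 0, as had 47.3% of all tested genes. The median of the 79 was 0.121 over all cells and 0.0652 in epithelial clusters. Their share of the other UMIs went from 11.8% to 15.2% over the ranges.

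**Figure D3:**
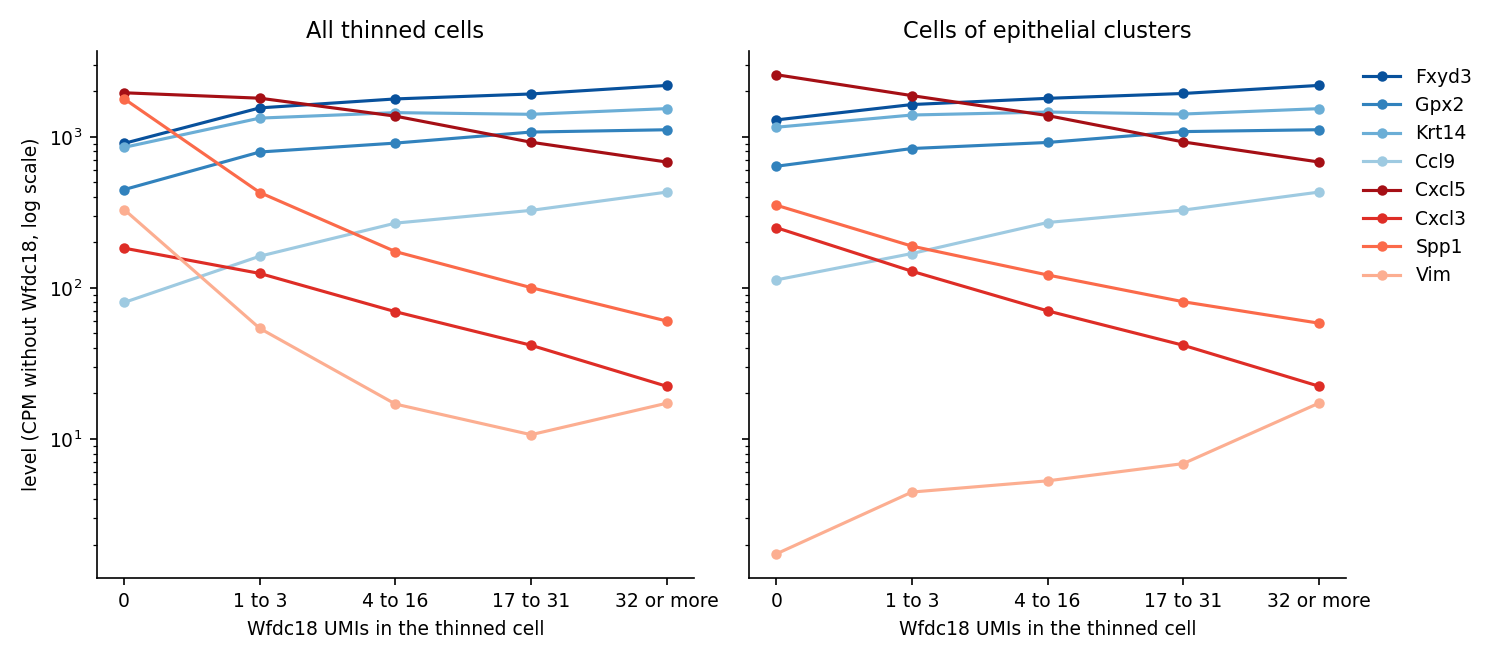
Level of 8 genes (y axis, CPM without Wfdc18, log scale) in 5 ranges of Wfdc18 UMIs per thinned cell (x axis), over all thinned cells on the left and over the epithelial clusters on the right. Points are summed counts of 1 culture; Fxyd3, Gpx2, Krt14 and Ccl9 (blue) are higher in the last range than in the first, and Cxcl5, Cxcl3 and Spp1 (red) lower, while Vim runs down on the left and up on the right.

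Within the 11353 thinned epithelial cells the correlations were fewer, and the genes with a rho of at most -0.2 were others. There 2 of the same 2601 genes (0.0769%) had a rho of at least 0.2, Fxyd3 (0.245) and Ccl9 (0.240). At most -0.2 were 3 genes (0.115%), all CXC chemokines that attract neutrophils, namely Cxcl5 (-0.241), Cxcl3 (-0.204) and Ppbp (-0.202). Gpx2 (0.194) and Tmsb4x (0.186) were also among the 5 highest, and Cxcl1 (-0.187) and Akr1b3, an aldose reductase (-0.175), among the 5 lowest. Tmsb4x (0.0186), Ppbp (-0.0287) and Akr1b3 (-0.0945) had been near 0 over all cells.

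The genes lowest over all cells came nearer to 0 in this subset. Vim went from -0.302 over all cells to 0.0615 in epithelial clusters, and Fstl1 from -0.256 to 0.0327, a change of sign for both. Piezo2 (-0.0155), Hmga2 (-0.0653) and Ccl7 (-0.0884) also came close to 0. Spp1 (-0.168) and Ccl2 (-0.166) kept a negative value. By the ratio rule Spp1 (0.196), Ccl2 (0.227), Ccbe1 (0.247), Ccl7 (0.287) and Hmga2 (0.343) were still lower in the top 20% of the epithelial cells. Piezo2 and Fstl1 were not called there, and Vim was called higher. Vim was scarce in these cells, with 44 UMIs in the top 20% and 10 in cells without Wfdc18, or 12.7 and 1.73 CPM.

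Within epithelial clusters the neutrophil chemokines were lower in cells with more Wfdc18. From no Wfdc18 UMI to 32 or more, Cxcl5 stood at 2575, 1872, 1381, 924 and 681 CPM. Cxcl3 stood at 250, 129, 70.4, 41.7 and 22.3 CPM, and Ppbp at 4841, 4060, 3098, 2079 and 1697 CPM. Each of these was lower in each range than in the one before. In the 2363 epithelial cells of the top 20% (20 or more UMIs) against the 3845 with none, Cxcl3 had a ratio of 0.113 (0.092 to 0.139), Cxcl5 0.311 (0.298 to 0.324) and Ppbp 0.382 (0.372 to 0.392).

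By the ratio rule 12 genes (0.461%) were higher and 27 (1.04%) lower in the epithelial top 20%. Ccl9 was 3.46-fold higher (3.15 to 3.81), at 391 against 113 CPM. Gpx2 (1.74-fold) and Fxyd3 (1.62-fold), called higher over all cells, stayed under the threshold of 2 here. In all, 5 of the 12 higher genes, Vim, Timp3, Sparc, Nrep and Ccn2, had been called lower over all cells. Timp3, an inhibitor of metalloproteinases, was 3.76-fold higher within the epithelial clusters (3.16 to 4.49, 123 against 32.6 CPM) and at a ratio of 0.370 over all cells. The lower group held Lcn2, Slpi, Krt19 and Gabrp beside the chemokines, and Gabrp, a GABA receptor subunit, stood at 11.3 against 151 CPM. Lcn2, Gabrp and Krt19 were also among the 10 leading genes of cluster 5. That cluster held 754 of the 3845 epithelial cells without Wfdc18 and 15 of the 1359 with 32 or more UMIs. How much of these differences lay between clusters was not tested. These genes of the lower and higher groups were picked out after their values were seen.

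**Figure D4:**
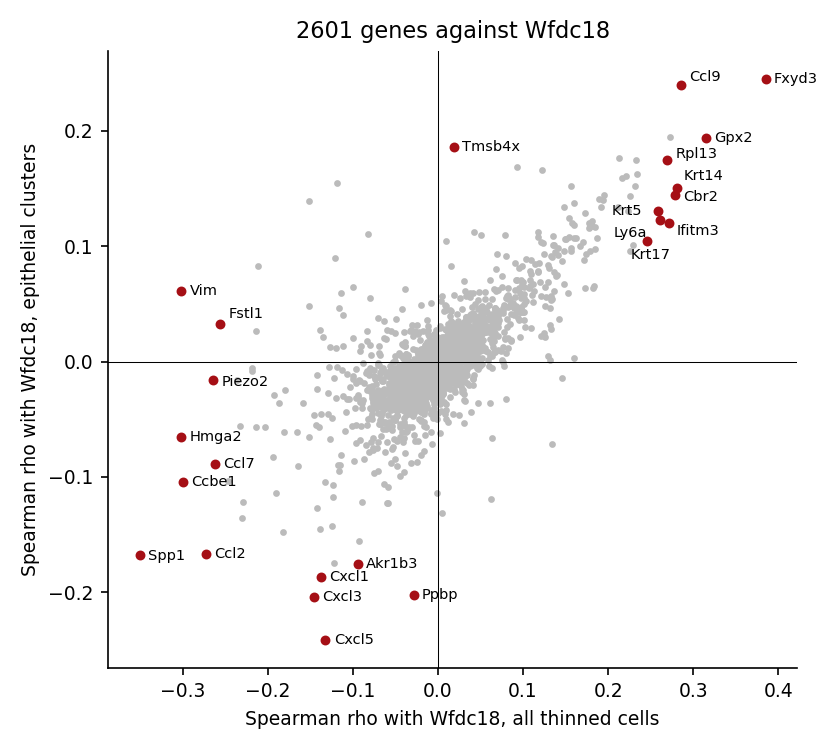
Spearman's rho of each of 2601 genes with Wfdc18 over all thinned cells (x axis) and over thinned cells of the epithelial clusters (y axis), with the genes named in the text by rule in red. Fxyd3 (0.385 and 0.245) and Ccl9 (0.286 and 0.240) lie at the upper right, Cxcl5 lowest (-0.241 on the y axis), and Vim to the left (-0.302) just above 0 on the y axis.

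Single clusters gave the same names in part. In cluster 1, 2 genes (0.0769%) reached 0.2, Fxyd3 (0.308) and Ccl9 (0.216), and 7 (0.269%) reached -0.2, with Cxcl5 (-0.338), Ppbp (-0.334), Ccl2 (-0.285) and Akr1b3 (-0.273) lowest. Total UMIs had a rho of -0.189 with Wfdc18 in this cluster. In cluster 3 Fxyd3 (0.234) was the 1 gene above 0.2 (0.0384%), and Ppbp (-0.269), Cxcl5 (-0.266) and Cxcl3 (-0.236) were the 3 below -0.2 (0.115%). In cluster 2, 3 genes (0.115%) reached 0.2, Fxyd3 (0.266), Ly6a (0.250) and Cbr2 (0.220), and none reached -0.2, with Cxcl5 at -0.138. In mesenchymal-like cluster 4, where few cells had Wfdc18, 18 genes (0.692%) reached 0.2, Fxyd3 (0.392), Gpx2 (0.341) and Krt5 (0.284) among them. Its cells with 10 or more Wfdc18 UMIs carried epithelial RNA and had a median doublet score of 0.384, against 0.0282 without Wfdc18. The part of mixed barcodes in these values was not tested. Clusters 6 and 7 had 124 and 153 thinned cells, and the 107 genes (4.11%) and 30 genes (1.15%) at 0.2 or above there are not read further. In cluster 5 Krt14 (0.214) and Cxcl5 (-0.217) were the 1 gene on each side (0.0384% each). Fxyd3 and Ccl9 were above 0 and Cxcl5 below 0 in clusters 1, 2, 3 and 5, and whether the sizes differ between clusters was not tested.

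Few other WAP genes could be compared with Wfdc18. Of the 24 listed WAP genes in the matrix, Wfdc18 among them, 8 had no UMI in kept cells. Apart from Wfdc18, 4 had at least 20 UMIs and 2 were abundant enough to be tested. Neither passed 0.2 in either direction, where 0.846% and 0.73% of all tested genes did, so this count says little of the family. Wfdc2, also called HE4, had 82889 UMIs and a rho of 0.0634 over all cells and -0.0663 in epithelial clusters. It was highest in cluster 5 (3706 CPM), where Wfdc18 was low, and stood at 1994 CPM in cluster 1 and 831 CPM in cluster 4. Slpi, with 6422 UMIs, had a rho of -0.142, stood at 49.8 CPM in the top 20% by Wfdc18 against 213 CPM without, a ratio called lower (0.234, 0.201 to 0.271), and was also highest in cluster 5 (390 CPM) and lowest in cluster 6 (14.2 CPM). Wfdc3 had 121 UMIs and Wfdc8 had 43, too few to describe over cells.

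Among 22 other listed proteinase inhibitors, 10 were tested and none passed 0.2 in either direction, against 0.846% and 0.73% of all tested genes, with a median rho of 0.0106. Serpinb5 (maspin) had the highest, 0.179, and was 2.13-fold higher in the top 20% (1.97 to 2.30). In epithelial clusters it was 1.52-fold higher, under the threshold of 2. Spint2, an inhibitor of membrane serine proteinases, had 0.132 and Serpinb6b 0.130 over all cells, and Timp3, called lower over all cells and higher in epithelial clusters as given above, had -0.152. Of 23 secreted proteinases 4 were tested and none passed, with Ctsb (a lysosomal cysteine proteinase) at -0.111, Prss23 at 0.0906 and Mmp14 (a membrane metalloproteinase) at -0.0843. Plat, tissue plasminogen activator, had -0.0973 and was below the limit for testing.

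Basal epithelial genes were above 0 throughout the tested list. Of 17 genes 14 were tested, all 14 had a rho above 0, as had 47.3% of all tested genes, and 5 reached 0.2, as had 0.846% of all tested genes. These were Krt14, Krt5, Krt17, Igfbp3 (0.229) and Col17a1 (0.224), and the median of the 14 was 0.109. None of the 14 reached 0.2 in epithelial clusters, where their median was 0.0576. Col17a1, the hemidesmosome collagen, was 2.21-fold higher in the top 20% (2.07 to 2.35), and Krt5 stood at 880 against 447 CPM. In epithelial clusters Col17a1 was 1.55-fold higher and Krt5 1.40-fold, both under the threshold of 2. Trp63, the basal transcription factor, had a rho of 0.121 over all cells and 0.0568 in epithelial clusters.

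The tested antimicrobial and secretory genes lay on the other side. All 5 of 22 that were tested had a rho below 0, while 47.3% of all tested genes were above 0. The 5 were Lcn2, Slpi and the chemokines Ppbp, Cxcl1 and Cxcl5, already named above, so these chemokines are counted here again. Their median rho was -0.132 over all cells and -0.187 in epithelial clusters. Of the 5, 4 were called lower in the top 20%, as were 2.15% of all tested genes. Lcn2, lipocalin-2, which binds bacterial iron carriers, stood at 67.6 CPM in the top 20% against 450 CPM in cells without Wfdc18, a ratio of 0.150 (0.132 to 0.170). Its rho was -0.0925 over all cells and -0.156 in epithelial clusters. Defb1, a beta-defensin below the limit for testing, went the other way, at 135 against 23.1 CPM and 5.83-fold higher (4.93 to 6.90).

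Of 16 genes of mammary involution and STAT3 signalling 5 were tested, none passed 0.2 in either direction, against 0.846% and 0.73% of all tested genes, and the median was -0.0535. Clu, the secreted chaperone clusterin, had 0.146 over all cells and -0.0145 in epithelial clusters, and Cebpb, a transcription factor, had -0.108. Below the limit for testing, Osmr, the oncostatin M receptor, was 2.40-fold higher in the top 20% (1.66 to 3.48), and Tgfb3 stood at 7.18 against 23.9 CPM, a ratio of 0.3003 (0.196 to 0.445). Of 19 apoptosis genes 5 were tested, with none past 0.2 and a median of -0.00366. Bcl2l11 (-0.0611), Pmaip1 (-0.049) and Birc3 (-0.0341) were farther from 0 but below the limit for testing. All 6 tested of 20 cell cycle genes lay near 0, with Ccnd1 at 0.0305, Birc5 at 0.0244, Ube2c at 0.0226 and Hmgb2 at 0.020.

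In the marker lists of other epithelial states few genes were tested, and none was at 0.2 in either direction, against 0.846% and 0.73% of all tested genes. Both tested interferon-responding markers of 8 were below 0, Bst2 at -0.191 and Isg15 at -0.144, and both were called lower in the top 20%, as were 2.15% of all tested genes. In epithelial clusters their rho was -0.114 and -0.055, and neither was called, at ratios of 0.523 and 0.654. Of 12 differentiated squamous markers 2 were tested, Krt6a (0.132) and Sprr1a (0.0782). The 6 tested of 8 simple epithelial markers had a median of 0.0112 over all cells and -0.0711 in epithelial clusters, where Epcam, a surface adhesion protein, went from 0.134 to -0.071. The 4 tested of 8 cycling markers had a median of 0.00895.

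The 2 tested genes among the engineered and Y-linked ones were Cdkn2a, with a rho of -0.130 over all cells and -0.027 in epithelial clusters, and Eif2s3y, with -0.00869 and 0.0189. Trp53 (0.0372) and the Y-linked Ddx3y (-0.064) and Uty (-0.0304) were too low to be tested. Cells with a UMI of a Y-linked gene had a mean of 9.34 thinned Wfdc18 UMIs and cells without had 9.74, with medians of 1 and 2. In epithelial clusters the order was the opposite, with means of 12.7 and 10.9 and medians of 4 and 3, and the mean was also higher with a Y-linked UMI in clusters 1, 2, 3 and 5 (15.8 and 14.9, 12.96 and 10.9, 11.5 and 8.98, and 2.38 and 2.18).

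Ccl9 is also a neighbour of Wfdc18 on chromosome 11, so the genes around it were read as well, a choice made after the correlation was seen. Ccl9 lies on the minus strand from 83572919 to 83578636, 130 kb from Wfdc18 on the side of the chromosome's start. Of 53 other genes in the matrix within 1000000 bases, 30 had at least 20 UMIs and 3 were tested. Ccl9 was the 1 with a rho of at least 0.2, as had 0.846% of all tested genes. With 3 tested and Ccl9 known beforehand, this count says little of the neighbourhood. The other tested neighbours were Ap2b1 (0.048), a clathrin adaptor subunit, and Taf15 (-0.0124), an RNA-binding protein. Nearer genes of the CC chemokine cluster had few UMIs, with 73 for Ccl6, 4 for Ccl3 and 8 for Ccl4. Ccl5, which attracts T cells, had 1943 UMIs and a rho of -0.0743 over all cells and -0.0993 in epithelial clusters. Within the epithelial clusters it stood at 6.95 CPM in the top 20% against 80.6 CPM without Wfdc18, opposite in direction to Ccl9.

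**Figure D5:**
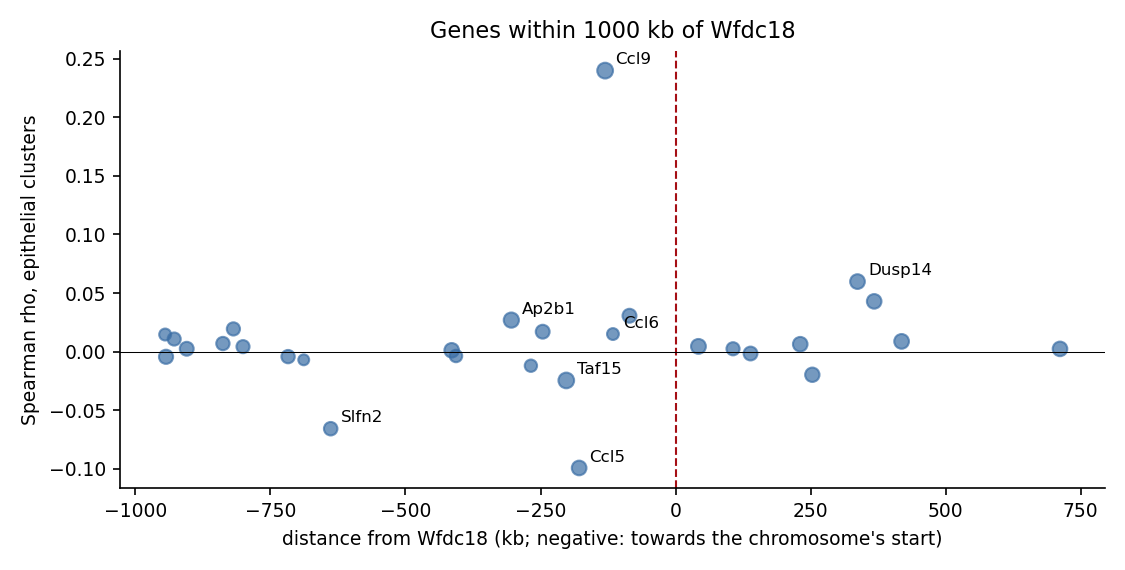
Spearman's rho with Wfdc18 over thinned cells of the epithelial clusters (y axis) for genes with at least 20 UMIs, by distance from Wfdc18 (x axis, kb, negative towards the chromosome's start). Larger points have more UMIs. Ccl9, 130 kb away, is highest at 0.240, and Ccl5 is lowest at -0.0993. Only Ccl9, Ap2b1 and Taf15 were abundant enough to be tested, so the rho of the other points says little.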

How the data were processed

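Droplet single-cell RNA was measured in 1 PC culture. The labels name 3 libraries (gene expression, barcode and scar), each a group of its own with 1 replicate, and the single matrix does not name the library it came from, so no groups were compared. The design assumed the gene expression library. The authors deposited UMI counts, whole numbers that were not normalized, written by Cell Ranger 8.0.1 per the file headers. The build mm10 and Scanpy 1.8.2 are named in the submitters' processing notes. The lowest deposited barcode total was 500 UMIs. Which annotation was used, and whether counting was by strand, is not stated in the labels or headers.

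From these counts, cells were filtered as stated in the report. Thinning drew 1500 UMIs per cell without replacement. Clusters came from scanpy 1.11.5 (igraph 0.11.9, 2000 variable genes, 30 components, 15 neighbours, resolution 0.6) after scaling to 10000 and log1p. A cluster name needed at least 2 markers among its 10 leading genes. Scrublet called 1 cell (0.0067%), too few for a working call, so doublets are taken as not removed. Gene models are GENCODE M21, which held 32158 of the 32287 feature IDs. The steps were tested on simulated data. No test between groups was possible and no p-value is given. Alternatives changed the filters, depth, seed, thresholds, clusters and measure, and leaving out cluster 6 was added after seeing the data.

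The gene, the lists and the rules were chosen with earlier results of these data known, and nothing here is independent support for them. Named genes are Wfdc18, the 12 highest and 8 lowest by rho over all cells, the 5 highest and 5 lowest in epithelial clusters, up to 4 measured members of each list farthest from 0, WAP genes with at least 20 UMIs, the 5 genes on each side by variance-to-mean ratio, and the 2 leading genes of each cluster. Of the genes this rule takes, 2 are not reported here. Others were named after their values were seen.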

Additional observations from a re-analysis of the deposited data

How the results depend on the processing

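No paired analysis was possible because there was 1 culture and no replicate, and no alternative leaving out a replicate could be run. The cause of each shift given here was not tested. Over 441 values under alternatives, 382 of them stayed within their limits. For the rho of a named gene the limit was its side of 0.2 in size, and 291 stayed, 19 moved and 2 reversed. For the other results it was the counting interval or a 1.5-fold change, and 91 stayed and 38 moved. The level of 6098 CPM became 6216 with at least 1000 genes and 2000 UMIs, 6159 with at most 10% mitochondrial UMIs, 6160 without the cells in the top 10% of doublet scores, 7086 in epithelial clusters, 6275 without GFP and Scar and 6207 without cluster 6. The share of thinned cells with a UMI, 58.0%, became 57.0% without high doublet scores, 66.1% in epithelial clusters, 53.9% at 1000 UMIs, 62.1% at 3000 UMIs and 63.2% without thinning. The variance-to-mean ratio of 28.1 was 54.8 at 3000 UMIs and 62.6 without thinning. Its rank of 1 became 2 at 1000 UMIs and 58 by excess variance. The 22 correlated genes became 2 in epithelial clusters, 63 at 3000 UMIs, 63 without thinning, 125 at a rho of 0.1 and 2 at 0.3. The 19 anticorrelated genes became 3 in epithelial clusters, 8 at 1000 UMIs, 38 at 3000 UMIs, 81 at a rho of -0.1, 3 at -0.3 and 6 with a mean of at least 0.5. The 27 genes higher in the top 20% became 12 in epithelial clusters, 44 at 3000 UMIs, 42 with a mean of at least 0.05, 7 with a mean of at least 0.5, 79 at 1.5-fold and 1 at 3-fold. The 56 lower genes became 27 in epithelial clusters, 106 with a mean of at least 0.05, 9 with a mean of at least 0.5, 160 at 1.5-fold and 29 at 3-fold. The ratio of cluster 1 to cluster 4, 20.5, was 172 at resolution 1.0. In epithelial clusters the rho of Fstl1 reversed to 0.0327 and that of Vim to 0.0615. With 1500 UMIs per cell, genes with a mean under 0.1 were too low to describe.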
